A study of Sus scrofa with 599 samples.

Results

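The genes EN1, ZIC1, TBX15, SHOX2, IRX3, IRX5, TBX1 and FOXC2 encode transcription factors that pattern the embryo, and most of them are known as marks of subcutaneous fat. They were followed by name through adipose tissues (ATs) of pigs that gained and lost weight. The choice was made with earlier results of these data known. All 8 were found among the 21280 protein-coding genes (PCGs) of the expression table. For 7 of them the annotation pairs the symbol with the Ensembl gene, and for TBX15 the gene (ENSSSCG00000006725) was taken from the ortholog table that accompanies the study.

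The study profiled adult female pigs of the small Chinese Bama breed by RNA-seq (236 samples with a label), in situ Hi-C (240 samples) and ChIP-seq of the histone mark H3K27ac (18 tables, 16 of them of pooled libraries). Pigs of the NC group ate a normal diet, pigs of the WG group gained weight on a high-fat diet for months, and pigs of the WL group were drawn from the weight-gain pigs and then held for weeks at a small fraction of the normal caloric intake. Each group gave 3 visceral ATs (VATs), the greater omentum (GOM), mesenteric fat (MAD) and retroperitoneal fat (RAD), and 1 subcutaneous AT, the upper layer of backfat (ULB). RNA-seq held 9, 12, 12 and 5 samples of GOM, MAD, RAD and ULB in NC, 45, 36, 39 and 38 in WG, and 10 of each in WL, and Hi-C held 9, 12, 12 and 5 in NC, 46, 37, 40 and 39 in WG, and 10 of each in WL. The WL pigs were older at sampling than the WG pigs and had eaten both diets, so diet and time cannot be told apart. The NC ULB group holds 5 samples (replicates 2, 5, 7, 9 and 12), and each comparison with it rests on them. ATs were bulk tissue, so fewer cells of a type and less RNA per cell cannot be told apart.

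As background, positional transcription factors are switched on in the embryo in stripes and patches along the body, and many cells keep part of that pattern into adult life. Fat under the skin of the back and fat within the abdomen come from different mesodermal fields, and cultured fat progenitors of these depots keep different sets of such factors. EN1 (engrailed homeobox 1) marks part of the dorsal somite that gives rise to dermis and fat, and ZIC1 is a zinc finger factor of the dorsal neural tube and somite. TBX15 and TBX1 are T-box factors, the former of the limb and skin and the latter of the pharyngeal arches. SHOX2 is a homeobox factor of the limb and the cardiac pacemaker. IRX3 and IRX5 are neighbouring Iroquois homeobox factors, known in human genetics as distant targets of obesity variants. FOXC2 is a forkhead factor of lymphatic vessels and valves and of fat cells.

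The members lie on 5 autosomes of the pig genome (Sscrofa11.1, RefSeq). EN1 (ENSSSCG00000015715) was at chr15:24402605-24408377 on the minus strand, ZIC1 (ENSSSCG00000011692) at chr13:87740769-87750258 on the plus strand and TBX15 at chr4:101918891-102032280 on the plus strand. SHOX2 (ENSSSCG00000025238) was at chr13:97879586-97892276 on the minus strand and TBX1 (ENSSSCG00000037762) at chr14:51289376-51297110 on the plus strand. On chromosome 6 lay IRX3 (ENSSSCG00000002831) at chr6:31044919-31049067 on the plus strand, IRX5 (ENSSSCG00000032145) at chr6:30511263-30515015 on the minus strand and FOXC2 (ENSSSCG00000029296) at chr6:2552141-2555041 on the minus strand.

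Promoter sequences (250 bases before to 50 after the start) are shown for EN1, ZIC1 and TBX15, the members with the widest gap between ULB and the omentum in expression. They are reference sequences of Sscrofa11.1 written 5′ to 3′ on the strand of the gene, in which capitals mark each CG dinucleotide. They span chr15:24408328-24408627 (EN1, minus strand), chr13:87740519-87740818 (ZIC1, plus strand) and chr4:101918641-101918940 (TBX15, plus strand).
EN1: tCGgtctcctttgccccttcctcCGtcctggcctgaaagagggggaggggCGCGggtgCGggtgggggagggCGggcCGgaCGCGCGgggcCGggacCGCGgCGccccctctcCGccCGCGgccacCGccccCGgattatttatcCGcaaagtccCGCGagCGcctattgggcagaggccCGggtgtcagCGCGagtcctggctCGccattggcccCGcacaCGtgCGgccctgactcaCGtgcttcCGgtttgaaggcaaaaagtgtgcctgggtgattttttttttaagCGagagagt
ZIC1: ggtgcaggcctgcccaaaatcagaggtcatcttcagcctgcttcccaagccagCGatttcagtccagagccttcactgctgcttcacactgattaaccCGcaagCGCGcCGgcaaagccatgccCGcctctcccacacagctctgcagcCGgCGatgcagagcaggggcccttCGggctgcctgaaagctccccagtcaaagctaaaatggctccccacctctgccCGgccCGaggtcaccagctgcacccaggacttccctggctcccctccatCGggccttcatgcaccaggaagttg
TBX15: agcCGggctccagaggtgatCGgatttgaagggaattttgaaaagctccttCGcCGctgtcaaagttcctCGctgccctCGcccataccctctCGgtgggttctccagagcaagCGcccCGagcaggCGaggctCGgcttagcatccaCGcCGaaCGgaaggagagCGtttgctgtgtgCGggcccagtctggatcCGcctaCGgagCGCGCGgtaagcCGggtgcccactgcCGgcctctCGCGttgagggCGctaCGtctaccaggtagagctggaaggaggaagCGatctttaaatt
The EN1 window holds 33 CG dinucleotides at a GC content of 68%, the TBX15 window 28 at 61.7% and the ZIC1 window 12 at 62.3%, while the median over 19506 promoters of the same length is 16 at 58.7%. SHOX2 lies at the other end, with 2 CG dinucleotides at 33.3%. A search of both strands for the homeobox core TAATTA (in 4.11% of all promoters), the T-box core AGGTGT (12.1%), the Iroquois site ACATGT (3.96%) and the forkhead site TGTTTAC (2.65%) found AGGTGT in the SHOX2 window, and none of these letters in the windows of the other 7 members.

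Samples held between 3337098 and 22939420 counts (median 16791659). In 48 of 236 samples PCGs took less than 90% of the TPM, 7 of 9 in NC GOM and 8 of 10 in WL GOM among them. WG GOM replicate 35 stands apart: it had the lowest total count, and its values of SHOX2 (19.4 TPM), IRX3 (11.9) and FOXC2 (4.59) were the highest of WG GOM, where the next highest were 5.63, 3.08 and 2.41 TPM. Values of SHOX2, IRX3 and TBX1 against WG GOM are given with and without it, and EN1, ZIC1, TBX15 and IRX5 kept their calls between WG GOM and ULB without it. The adipocyte list (6 genes, all in the table) summed to between 3807 and 34105 TPM per sample and had no gene with a mean below 0.5 TPM in any group. Mesothelial markers (2 of 6 in the table) had medians of 102.3, 111 and 187 TPM in GOM of NC, WG and WL, and at most 8.96 TPM in the other ATs. The medians of skeletal muscle (5 of 6 in the table), keratinocyte (4 of 6) and kidney or adrenal markers (6 of 6) were at most 6.42, 14.1 and 47.1 TPM in any group.

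EN1 and ZIC1, the somitic factors, were both high in ULB, but RAD separated them. In NC ULB, EN1 stood at 12.4, 8.36, 14.5, 7.31 and 13.7 TPM in replicates 2, 5, 7, 9 and 12. The lowest, median and highest values were 3.67, 12.8 and 23.9 TPM in WG ULB, and 10.2, 16.2 and 25.8 TPM in WL ULB. RAD held an intermediate level, with 1.57, 3.19 and 4.18 TPM in NC, 1.87, 3.95 and 8.25 TPM in WG and 2.50, 4.55 and 7.36 TPM in WL. EN1 was near the floor in MAD, where medians were 0.314, 0.316 and 0.601 TPM and no sample passed 1.08 TPM, and lower still in GOM, where medians were 0.0516, 0.258 and 0.256 TPM. ULB did not overlap with a VAT in 8 of 9 comparisons, the exception being RAD in WG. As background, all ULB samples lay above all samples of GOM, MAD and RAD in 4.43%, 1.22% and 0.989% of the PCGs tested in NC, in 0.19%, 0.154% and 0.0375% in WG, and in 1.04%, 0.849% and 0.393% in WL. The order of the means was ULB, RAD, MAD, GOM in each diet group.

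ZIC1 was found in ULB and barely elsewhere. NC ULB held 22.7, 14.4, 22.04, 12.0 and 26.9 TPM, and the lowest, median and highest values were 2.08, 7.92 and 47.6 TPM in WG ULB and 5.75, 13.9 and 37.5 TPM in WL ULB. The VAT medians were 0 in all 9 groups, and the highest VAT sample stood at 0.3997 TPM (NC GOM). ZIC1 was at 0 in all 10 samples of MAD and of RAD in WL, in 33 of 39 of RAD in WG, and in 9 of 12 of RAD in NC. ULB did not overlap with any VAT in 9 of 9 comparisons. RAD, which carried EN1, TBX15 and SHOX2, did not carry ZIC1.

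In ULB, TBX15 had the highest level per length of the 8 genes. NC ULB held 65.7, 66.2, 61.9, 68.3 and 73.2 TPM, a narrow range. The lowest, median and highest values were 27.2, 58.1 and 105 TPM in WG ULB, and 33.7, 44.1 and 57.1 TPM in WL ULB. All WL values were below all 5 NC values. RAD again came next, with medians of 5.71, 5.64 and 3.68 TPM in NC, WG and WL and a highest sample of 12.97 TPM. In GOM and MAD no sample passed 1.06 TPM. ULB did not overlap with any VAT in 9 of 9 comparisons.

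**Figure D1:**
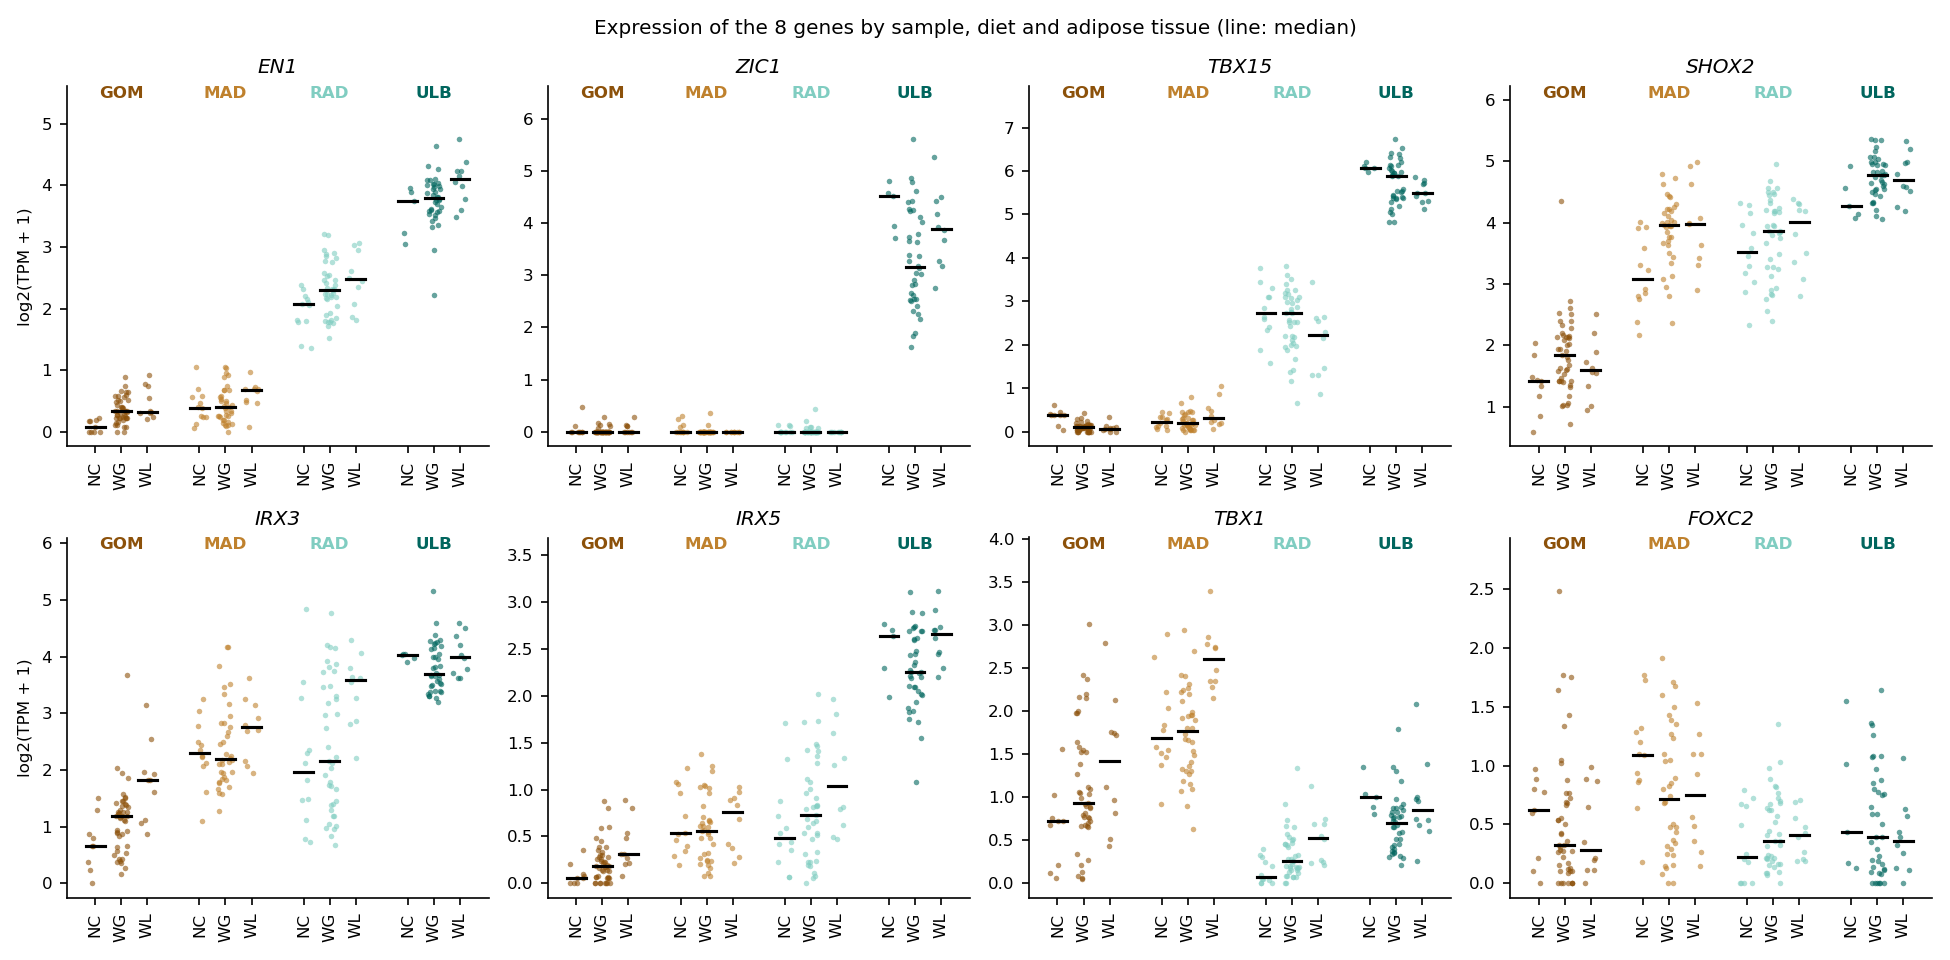
Expression of the 8 genes as log2(TPM + 1), with 1 point per RNA-seq sample, grouped by AT (GOM, MAD, RAD, ULB) and diet group (NC, WG, WL), and a line at each median. ZIC1 is at or near 0 in the VATs, EN1 and TBX15 are intermediate in RAD, and TBX1 and FOXC2 have their highest medians in MAD.

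SHOX2 was found in all 4 ATs, and least in GOM. NC ULB held 29.3, 16.7, 22.6, 18.2 and 15.9 TPM, and the median was 26.4 TPM in WG ULB and 24.9 TPM in WL ULB. Medians in RAD were 10.5, 13.5 and 15.2 TPM and in MAD 7.47, 14.6 and 14.8 TPM, for NC, WG and WL. GOM was lower, with medians of 1.68, 2.57 and 2.02 TPM. ULB did not overlap with a VAT in 3 of 9 comparisons, and MAD and RAD were not told apart by the test in any diet group (log2 fold change of RAD over MAD 0.47 ± 0.24 (SE) in NC, 0.00 ± 0.14 in WG and -0.28 ± 0.25 in WL).

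The Iroquois genes shared an order of their means, ULB, RAD, MAD, GOM in each diet group, at different levels. By medians, MAD lay above RAD for IRX3 in NC and WG, and for IRX5 in NC (0.447 and 0.403 TPM). IRX3 was nearly constant in NC ULB, at 14.1, 14.8, 15.6, 15.4 and 15.5 TPM, and had medians of 12.0 and 15.01 TPM in WG and WL ULB. RAD varied most: its lowest, median and highest values were 0.660, 2.94 and 27.7 TPM in NC, 0.590, 3.44 and 26.2 TPM in WG and 3.65, 10.99 and 18.5 TPM in WL. Some RAD samples therefore reached or passed the ULB level, and ULB did not overlap with a VAT in 3 of 9 comparisons. Medians in MAD were 3.92, 3.58 and 5.73 TPM, and in GOM 0.584, 1.28 and 2.54 TPM. IRX5 was lower, with 3.93, 5.82, 5.48, 2.96 and 5.21 TPM in NC ULB and medians of 3.76 and 5.32 TPM in WG and WL ULB. No VAT median of IRX5 passed 1.07 TPM (WL RAD). ULB did not overlap with a VAT in 7 of 9 comparisons for IRX5.

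Across the samples of 1 AT in WG, IRX3 and IRX5 went together in 3 ATs. In RAD (n = 39) Pearson's r of log2(TPM + 1) was 0.778 (permutation p = 1e-05, the smallest that 100000 permutations can give; adjusted p = 7e-05) and Spearman's rho 0.778 (adjusted p = 7e-05), and r was 0.771 without the 2 samples farthest from the median. In MAD (n = 36) r was 0.607 (adjusted permutation p = 0.00042) and rho 0.641 (7e-05), with 0.572 without 2 samples. In ULB (n = 38) r was 0.531 (adjusted permutation p = 0.00084) and rho 0.485 (0.0034), with 0.416 without 2 samples. No relation was detected in GOM (n = 45), where r was 0.153 (adjusted permutation p = 0.3) and rho 0.138 (0.37), with 0.313 without 2 samples. Within WG ULB, EN1 and ZIC1 had r = 0.546 and rho = 0.496, TBX15 and ZIC1 r = 0.536 and rho = 0.4925, and EN1 and TBX15 r = 0.525 and rho = 0.387 (adjusted permutation p = 0.0007 for each r, and 0.0034, 0.0034 and 0.019 for rho). Without the 2 farthest samples these 3 fell to r = 0.413, 0.472 and 0.346. Adjustment was over the 7 relations computed. Among the samples with at least 90% of TPM on PCGs, which leaves out WG GOM replicate 35, r of IRX3 and IRX5 was 0.334 in GOM (n = 41, adjusted permutation p = 0.032) and 0.618, 0.781 and 0.582 in MAD, RAD and ULB, and r of the 3 ULB pairs was 0.571, 0.522 and 0.546. For IRX3 and IRX5 in these GOM samples, rho was 0.210 (adjusted permutation p = 0.19), and r was 0.298 without 2 samples.

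TBX1 and FOXC2 did not follow ULB. TBX1 was highest in MAD, with lowest, median and highest values of 0.889, 2.22 and 6.47 TPM in NC, 0.545, 2.41 and 6.70 TPM in WG and 3.46, 5.12 and 9.56 TPM in WL. NC ULB held 1.00, 1.05, 1.55, 0.742 and 0.844 TPM, and medians in ULB were 0.620 and 0.812 TPM in WG and WL. RAD, the VAT nearest to ULB for EN1 and TBX15, was lowest for TBX1, with medians of 0.0509, 0.194 and 0.445 TPM. FOXC2 was low throughout: MAD medians were 1.13, 0.642 and 0.691 TPM, and NC ULB held 0.125, 1.02, 0.0945, 0.355 and 1.93 TPM. For both genes the means were highest in MAD and lowest in RAD in each diet group, and ULB overlapped with each VAT for FOXC2.

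The expression of ULB was compared with that of each VAT by edgeR's quasi-likelihood test (a call needed a fold change over 1.5 and an adjusted p under 0.05). In NC, 6 of the 8 members were called higher in ULB than in GOM (13.3% of all PCGs tested were), 6 than in MAD (4.57%) and 5 than in RAD (2.92%). In WG, 6 were higher than in GOM (7.59%), 6 than in MAD (6.25%) and 6 than in RAD (5.2%), and in WL 6 than in GOM (6.16%), 6 than in MAD (5.54%) and 5 than in RAD (2.29%). The filter on low values (80% or more of 1 group over 0.5 TPM) let 2 to 6 members per comparison in through ULB alone. For such a gene the filter favours a higher value in ULB, so these counts are no support for a direction. The same holds for TBX1 in WG, which passed through GOM or MAD alone. With no filter and all 8 tested, 6, 6 and 5 members were higher than in GOM, MAD and RAD in NC, 6, 6 and 7 in WG, and 6, 5 and 5 in WL. EN1, ZIC1, TBX15 and IRX5 were called in all 9 comparisons. Between NC RAD and ULB, where these genes and TBX1 were called, 2 of the 5 calls were lost with the replicate block. Over all comparisons of expression, 91 of the 98 calls of members remained with a term for the library set and 7 were lost. The replicates are separate samples by label, and the labels do not say which samples share a pig, so p-values measure the spread between these samples.

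Of the called genes, ZIC1 and TBX15 had the widest differences. ZIC1 passed the filter through ULB alone in each comparison, and EN1 and TBX15 did against GOM and MAD. The filter favoured a higher value in ULB there, so the adjusted p-values of these tests are no support for a direction. ZIC1 was higher in ULB than in GOM by a log2 fold change of 8.46 ± 0.58 (SE; adjusted p = 3.21e-08) in NC, 8.92 ± 0.31 (7.09e-43) in WG and 8.13 ± 0.50 (3.37e-11) in WL. Against MAD and RAD in WL, where all 10 libraries were at 0, ULB was at least 55.4-fold and 55.8-fold higher, taking 3 counts per library as the floor. TBX15 differed from GOM by 7.84 ± 0.29 (1.04e-11), 9.41 ± 0.18 (1.02e-61) and 9.39 ± 0.26 (3.02e-17), and from RAD by 3.34 ± 0.27 (1.86e-07), 3.31 ± 0.17 (2.46e-29) and 3.58 ± 0.31 (7.72e-08). EN1 differed from RAD by 1.82 ± 0.22 (3.05e-05), 1.65 ± 0.10 (5.4e-24) and 1.69 ± 0.25 (8.71e-05), and from GOM by 6.85, 5.55 and 5.34. Adipocyte markers were also higher in ULB than in GOM, 6, 1 and 4 of 6 in NC, WG and WL, with summed medians of 7982, 15100 and 13063 TPM in GOM and 15090, 15669 and 22166 TPM in ULB, and their part in these results was not tested. The mesothelial marker tested there, KRT8, was lower in ULB (-3.74, -4.51 and -5.13), and of 6 progenitor and fibroblast markers 2, 1 and 1 were higher and 1, 3 and 2 lower; their part was not tested either.

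SHOX2 and IRX3 were separated from the omentum but less from RAD. SHOX2 was higher in ULB than in GOM by 3.56 ± 0.32, 3.25 ± 0.17 and 3.54 ± 0.24 in NC, WG and WL (3.43 in WG without WG GOM replicate 35). Against MAD it was higher by 1.28 (adjusted p = 0.00691), 0.92 (4.93e-11) and 0.65 (0.0462), and the last call was lost with a term for the library set (0.54), with no filter (0.66) and in 1 fit over the 12 groups (0.66). Against RAD the difference in NC was 0.80 ± 0.26 and was not called (0.0907), while 0.93 in WG and 0.94 in WL were called. IRX3 was higher than in GOM by 4.33, 3.43 and 2.51 (3.62 in WG without WG GOM replicate 35), and its difference from RAD was 1.42 ± 0.60 in NC (adjusted p = 0.222, not called), 1.10 ± 0.24 in WG (0.00011; 1.84 with the replicate block) and 0.57 ± 0.25 in WL (0.218, not called). IRX5 differed from RAD by 2.88 ± 0.52, 2.27 ± 0.23 and 1.92 ± 0.34. In NC and WG, IRX3 against GOM and IRX5 against RAD passed the filter through ULB alone, which favoured a higher value in ULB.

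TBX1 was lower in ULB than in MAD in each diet group, as were 3.17%, 8.18% and 8.89% of the PCGs tested in NC, WG and WL. In WG, where it passed the filter through MAD alone, which favoured a lower value in ULB, the log2 fold change was -1.88 ± 0.18 (adjusted p = 4.92e-15), and in WL, where it passed through both, -2.46 ± 0.31 (1.14e-05). In NC it was -1.41 ± 0.40 (0.0329), a call that was lost under 4 other settings and without NC ULB replicate 2, 5, 9 or 12 (-1.43, -1.43, -1.37 and -1.31). Against GOM (12.1%, 10.3% and 9.81% of PCGs lower), TBX1 was lower in WG (-1.02 ± 0.25, 0.000473; -0.97 without WG GOM replicate 35), where it passed through GOM alone, and the differences in NC (0.63 ± 0.59, 0.433) and WL (-0.996 ± 0.46, 0.118) were not called. Against RAD, where 1.4%, 4.07% and 2.05% of PCGs and no member were lower, TBX1 was higher in NC ULB by 3.11 ± 0.61 (0.00389), having passed through ULB alone. FOXC2 passed the filter in 1 of the 9 comparisons, that with NC MAD, and was not called there (-0.87 ± 0.62, 0.439). Lymph node markers (4 of 6 in the table) went the way of TBX1 between MAD and ULB, with sums of 37.6 to 1179 TPM in WL MAD and 15.4 to 30.2 TPM in WL ULB, and their part in the result was not tested. Endothelial markers (3 of 4 in the table) were called in 0 of the 9 comparisons by edgeR.

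**Figure D2:**
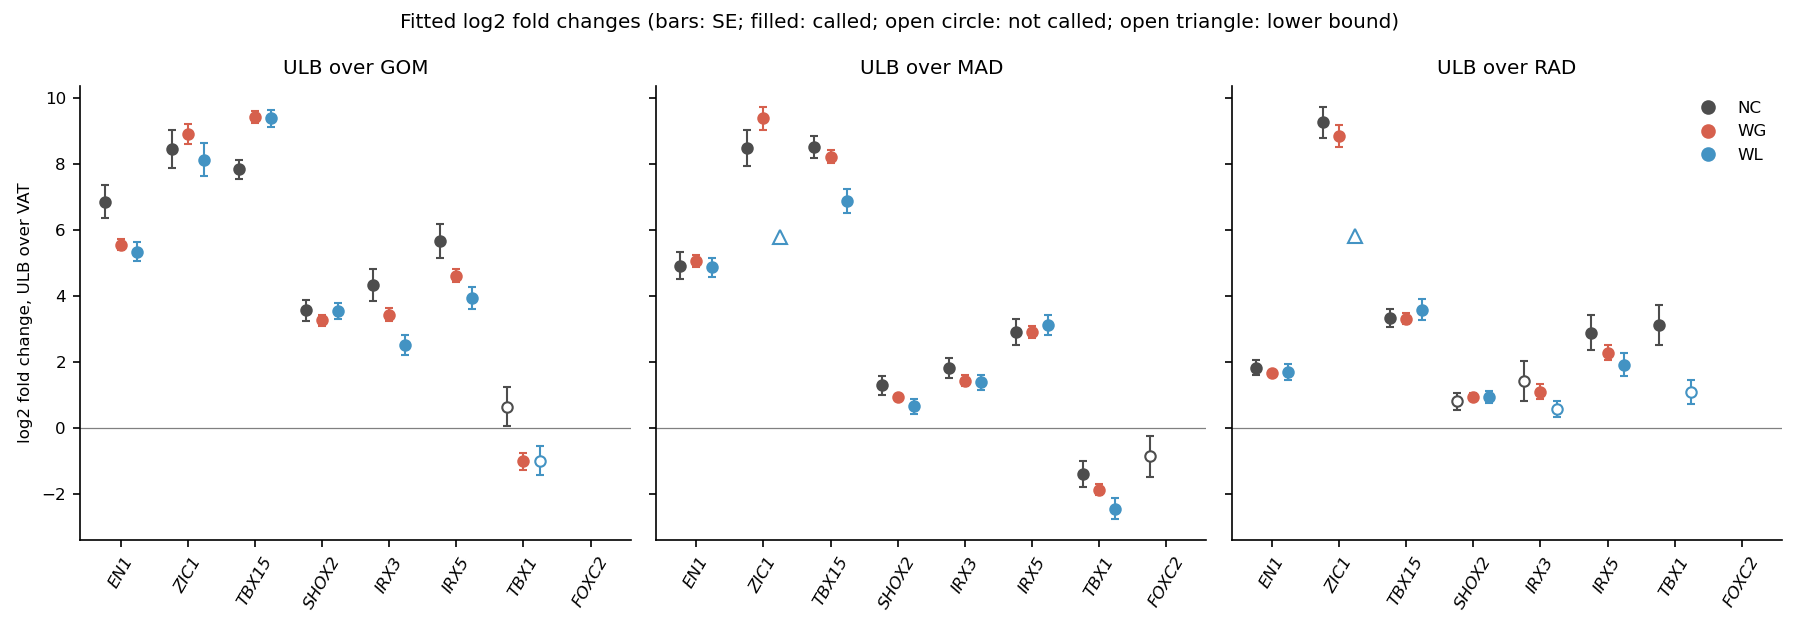
Log2 fold change of ULB over GOM, MAD and RAD (panels) for the 8 genes, by diet group, with bars of 1 SE, filled points for called genes, open circles for genes not called and triangles for a lower bound. Points of EN1, ZIC1, TBX15 and IRX5 lie above 0 in all 3 panels, and those of TBX1 against MAD lie below 0; FOXC2 has 1 point, since it passed the filter once.

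Among the VATs, EN1 and TBX15 were highest in RAD, and SHOX2 and IRX3 were higher in MAD and in RAD than in GOM. Between GOM and MAD, NC gave 3 called members (17.7% of PCGs in either direction), WG 3 (6.27%) and WL 3 (5.97%): SHOX2, IRX3 and TBX1 were higher in MAD each time. Of these, TBX1 in NC was lost with a term for the library set (1.85), and IRX3 in WL with no filter and in 1 fit (1.13 in both). Between GOM and RAD, NC gave 4 (19.5%), WG 5 (11.2%) and WL 6 (12.2%). For MAD and RAD, NC gave 4 (2.41%), WG 3 (5.4%) and WL 3 (7.31%). In this WL comparison, where the numbers pair the samples, the replicate block gave 5 (11%), with IRX3 (0.77, adjusted p = 0.0492) and IRX5 (1.08, 0.0425) added as higher in RAD (0.80, 0.0639 and 1.19, 0.0758 without the block). Between MAD and RAD, EN1 and TBX15 passed the filter through RAD alone and TBX1 through MAD alone. IRX5 in WL passed through RAD alone, and FOXC2 in NC through MAD alone. The filter thus favoured a difference between MAD and RAD for these members, and their calls are no support for a direction. TBX15 was higher in RAD than in MAD by a log2 fold change of 5.16 ± 0.37, 4.93 ± 0.25 and 3.31 ± 0.49 in NC, WG and WL, and EN1 by 3.07 ± 0.33, 3.43 ± 0.18 and 3.17 ± 0.33. TBX1 went the other way, lower in RAD by 4.54, 3.09 and 3.55 on the log2 scale. These T-box genes thus had opposite orders in MAD and RAD. SHOX2 was higher in MAD than in GOM by 2.31, 2.32 and 2.91, and IRX3 higher in RAD than in GOM by 2.91, 2.35 and 1.95 (SHOX2 2.51 and IRX3 2.53 in WG without WG GOM replicate 35). Against GOM, IRX3 passed through MAD or RAD alone in NC and WG, and TBX1 through MAD alone in NC. Between GOM and RAD, EN1 and TBX15 passed through RAD alone in each diet group, as did IRX5 in WL. There, TBX1 passed through GOM alone in WG and WL. The calls of these members in those comparisons are no support for a direction either. FOXC2 was lower in NC RAD than in NC MAD (-1.99 ± 0.55, adjusted p = 0.0491), and this call was lost with a term for the library set, with no filter and with the replicate block.

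Few member tests were called between diet groups. From NC to WG, edgeR called 0 of 17 member tests in the 4 ATs, where 26.7% (GOM), 10.7% (MAD), 16.7% (RAD) and 2.38% (ULB) of PCGs were called. At an unadjusted p under 0.05 there were 4, SHOX2 in MAD (0.58 ± 0.19) and TBX15 (-0.44 ± 0.19), ZIC1 (-0.93 ± 0.42) and TBX1 (-0.79 ± 0.35) in ULB, and DESeq2 and edgeR's exact test also called 0. Some member tests were called with a term for the library set, with no filter, in 1 fit over the 12 groups and with no limit on the fold, as given at the end. From WG to WL, 1 member was called in MAD, where 17.4% of PCGs were, and 0 in GOM (5.26%), RAD (6.37%) and ULB (8.12%). It was TBX1, higher in WL MAD by 1.05 ± 0.22 (adjusted p = 0.000295), a call that was lost with a term for the library set (0.75). In WL MAD 7 of 10 samples had less than 90% of TPM on PCGs, against 2 of 36 in WG MAD. IRX3 in GOM differed by 1.02 ± 0.35 (0.0565, not called), and by 1.24 (0.00145, called) without WG GOM replicate 35.

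Between NC and WL, which share their samples with the comparisons above, 6 member tests were called. In GOM, where 36.1% of PCGs were called, IRX3 was higher in WL by 1.66 ± 0.50 (adjusted p = 0.00747) and TBX1 by 1.31 ± 0.55 (0.0492). Both passed the filter through WL GOM alone, which favoured a higher value in WL, so these calls are no support for a direction. In MAD (33.1%), SHOX2 was higher by 0.71 ± 0.26 (0.0312) and TBX1 by 0.72 ± 0.27 (0.0318). TBX15 was lower in WL in RAD (26.7%) by 1.06 on the log2 scale (SE 0.34, 0.0159) and in ULB (14.8%) by 0.83 (SE 0.13, 0.000434). Both TBX1 calls were lost with a term for the library set, and that of TBX15 in ULB was lost in 1 fit over the 12 groups (-0.81). Progenitor and fibroblast markers (6 of 6 in the table) went the way of TBX15 in ULB, with sums of 3057 to 4871 TPM in NC ULB and 1430 to 2285 TPM in WL ULB, and their part in the result was not tested.

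Whether the gap between ULB and a VAT changed with diet was tested in 1 model over the 12 groups. From NC to WG, 0 of 8 members were called against GOM (3.73% of PCGs), MAD (0.869%) and RAD (0.372%), with 4 of the 24 tests at an unadjusted p under 0.05. TBX15 against GOM came nearest, at an adjusted p of 0.0594, and was called without NC ULB replicate 9 (1.61, 0.0473). From WG to WL, 1 member was called against MAD (5.82%) and 0 against GOM (0.883%) and RAD (0.153%). The gap of TBX15 between ULB and MAD shrank by 1.35 on the log2 scale (-1.35 ± 0.40, 0.0196). Medians of TBX15 were 0.143 TPM in WG MAD and 0.248 TPM in WL MAD, against 58.1 and 44.1 TPM in ULB. The MAD values were thus near the floor.

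The genes with the most similar pattern were sought by Pearson's r of log2(TPM + 1) over the 236 samples, among 12310 PCGs with a symbol, as a description with no test, since AT and library are shared by all genes. EN1 was nearest to TBX15 (0.948) and FGF10 (0.932), and TBX15 to EN1 (0.948), FGF10 (0.937) and FBLN7 (0.892). FGF10 is a growth factor of limb buds. ZIC1 was nearest to IRX2 (0.947), ZIC4 (0.939) and RIMS3 (0.900), IRX5 to IRX1 (0.899), IRX2 (0.879) and ZIC1 (0.857), and IRX3 to IRX5 (0.818), IRX1 (0.805) and PRRX1 (0.705). SHOX2 was nearest to CRYM (0.758), SFRP4 (0.748) and FAP (0.741), of which FAP is a marker of fibroblasts. TBX1 was nearest to RELN (0.868), FLT4 (0.863) and PARD6G (0.848), of which FLT4 is the receptor of lymphatic endothelium, and FOXC2 to HLX (0.719), FOXP4 (0.717) and TNRC6C (0.714).

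Of 20 related genes (other EN, ZIC, T-box, SHOX, Iroquois and FOX factors) 9 were tested. Against GOM, 5, 5 and 6 were called higher in ULB in NC, WG and WL and 1, 2 and 1 lower, with median log2 fold changes of 0.93, 0.62 and 1.203 beside -0.02, 0.00 and -0.01 over all PCGs tested. Against MAD, 4 were higher in each diet group and 1, 2 and 1 lower, and against RAD 3 were higher in each and 1, 1 and 2 lower. ZIC4, the partner of ZIC1 with a start 45 bases away, was higher than in GOM by a log2 fold change of 8.19, 7.35 and 6.16, IRX1 by 6.72, 8.17 and 7.40, and IRX2 by 6.62, 7.87 and 7.33. TBX5, a T-box factor of the forelimb and heart, was higher by 2.33, 2.19 and 3.48. FOXF1, a forkhead factor of visceral mesoderm, was lower in ULB by 1.47, 1.65 and 1.94 on the log2 scale. Of the visceral factors, WT1 was lower in ULB than in GOM (-6.50, -5.86 and -7.77 in NC, WG and WL), as were TCF21 (-6.79, -5.81 and -7.11), BNC1 (-6.85, -6.70 and -10.38) and GATA6 (-3.68, -2.74 and -3.59). These were 4 of the 5 tested of 6 visceral factors, and NR2F1 was not called (-0.73, -0.13 and -0.25). As given above, the mesothelial markers were also highest in GOM, and their part was not tested. The related genes with values were picked because they were called against GOM in all 3 diet groups. For a related or visceral gene that passed the filter through 1 AT alone, a call is no support for a direction. ZIC4 was such a gene, with no GOM sample above 0.136 TPM.

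Neighbours within 500 kb were called in both directions, against 13.3%, 7.59% and 6.16% of all PCGs tested higher than in GOM in NC, WG and WL and 12.1%, 10.3% and 9.81% lower. EN1 had 5 such genes, 4 of them in the table, of which against GOM 1, 1 and 0 were called higher in ULB in NC, WG and WL and 1 lower in each. TBX15 had 6 neighbours, 4 of them in the table, with 1, 2 and 1 higher and 0 lower. ZIC1 had 1 neighbour, ZIC4, called higher in each diet group. TBX1 lay in a gene-dense stretch of 33 genes, 20 of them in the table, with 3, 1 and 0 higher and 0, 1 and 1 lower. SHOX2 had 2 neighbours, of which 0 were called, and FOXC2 3, with 0 higher and 1 lower in each diet group. IRX5 had 4, 3 of them in the table, with 1 higher in each diet group and 1, 0 and 0 lower. IRX3 had 1, which was not in the table. MARCO, the scavenger receptor gene next to EN1, had medians of 4.15, 4.37 and 3.45 TPM in GOM against 0.245, 0.607 and 0.719 TPM in ULB.

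Chromatin compartments were read from the A-B index of the 20-kb bin that holds each start (positive in compartment A, the active one, negative in B), compared with limma (adjusted p below 0.05 and a difference above 0.75). EN1 went with expression in its order. In NC ULB its index was 1.94, 1.58, 2.07, 1.78 and 1.70 in replicates 2, 5, 7, 9 and 12, and the medians in GOM, MAD and RAD were -0.506, 0.0826 and 1.03. In WG the medians were -0.240, 0.717, 1.29 and 1.88 for GOM, MAD, RAD and ULB, and in WL -0.220, 0.534, 1.46 and 1.78. EN1 was thus in compartment A in all ULB and RAD samples, and in B in most of GOM.

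ZIC1 was in compartment B in all VAT samples and mostly in ULB too. NC ULB had -0.234, -0.646, 0.439, 0.304 and -0.278, and 2 of 39 WG and 1 of 10 WL ULB samples were positive. ULB medians were -0.777 in WG and -1.05 in WL, and VAT medians lay between -2.90 and -1.88. The ZIC1 bin was therefore less negative in ULB without being in compartment A. TBX15 had 1.25, -0.512, 0.722, -0.134 and 0.851 in NC ULB, with medians of -0.0441 and 0.121 in WG and WL ULB, where 19 of 39 and 6 of 10 samples were positive. In the VATs, TBX15 was positive in 2 samples, both of WL RAD. RAD medians were -1.103, -1.25 and -0.426, and GOM medians -1.99, -2.30 and -2.14.

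In NC, 16 of the 24 member tests were called higher in ULB, namely 7 of 8 against GOM (11% of bins), 5 against MAD (4.57%) and 4 against RAD (8.08%). In WG the count was 14, with 7 against GOM (11.9%), 4 against MAD (8.68%) and 3 against RAD (8.8%), and in WL it was 10, with 6 against GOM (10.2%), 3 against MAD (3.83%) and 1 against RAD (1.68%). The index of TBX15 was higher in ULB than in GOM by 2.50 ± 0.28 (SE), 2.35 ± 0.098 and 2.32 ± 0.17 in NC, WG and WL, that of ZIC1 by 2.61, 1.80 and 1.91, and that of EN1 by 2.35, 2.25 and 2.22. Against RAD, TBX15 differed by 1.53 ± 0.30 (adjusted p = 0.00222) in NC, 1.24 ± 0.11 (6.87e-16) in WG and 0.525 ± 0.19 (0.0769, not called) in WL. The bins of IRX5 and IRX3 were higher in ULB than in GOM by 2.03 and 1.93 in NC, 1.79 and 1.46 in WG and 1.70 and 1.53 in WL. IRX3 against NC MAD (0.826) was no longer called without NC ULB replicate 2 (0.714), and it, EN1 against NC RAD and TBX1 against NC GOM were not called for the mean of 3 bins (0.604, 0.676 and 0.723). SHOX2 was called higher in 1 test, against WG GOM (0.820), and lower against WL RAD (-0.824, adjusted p = 0.04), a call that was lost after quantile normalization (-0.754) and for the mean of 3 bins (-0.423). TBX1 and FOXC2, in compartment A in all 240 samples, were also higher than in GOM, TBX1 in NC by 1.04 and FOXC2 by 1.47, 0.938 and 1.45.

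**Figure D3:**
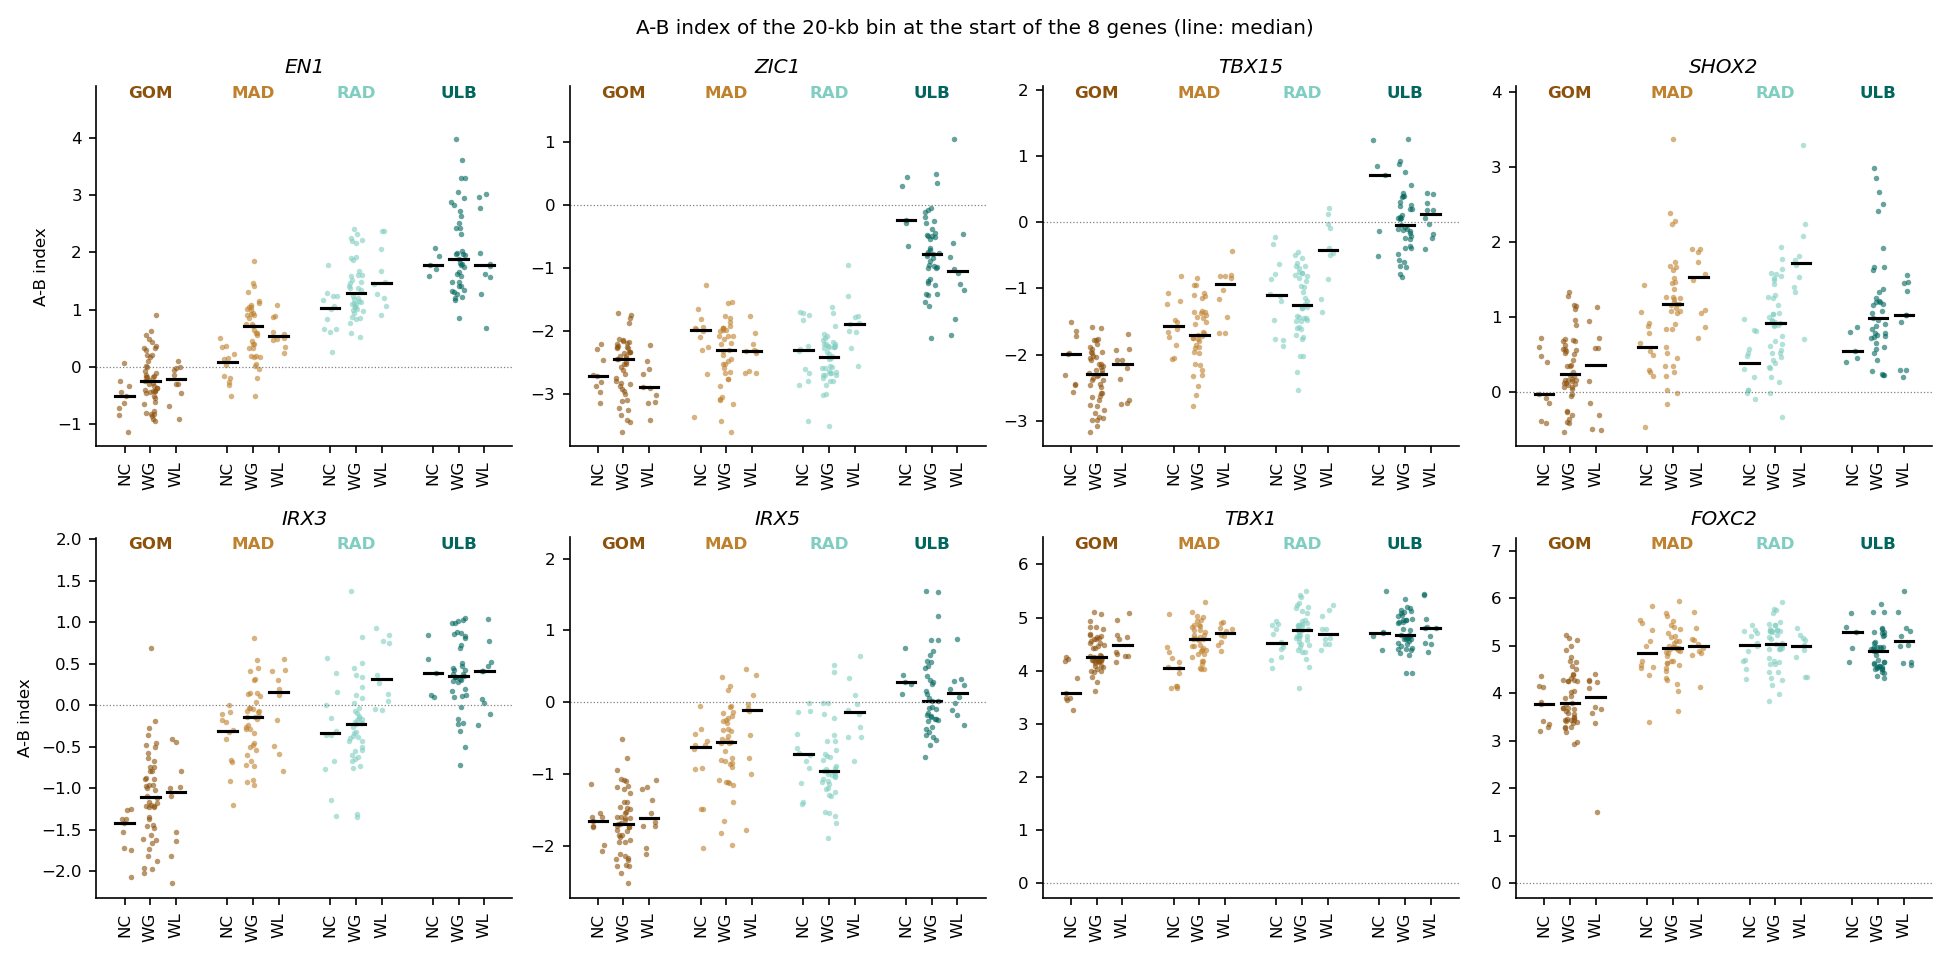
A-B index of the 20-kb bin at the start of each gene, with 1 point per Hi-C sample, grouped by AT and diet group, and a line at each median. ZIC1 lies below 0 in all VAT samples, EN1 above 0 in all ULB and RAD samples, and TBX1 and FOXC2 above 0 throughout.

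The share of bins called higher or lower depended on the scale of the index. Among all bins past the threshold, 29.4% to 78.1% were higher in ULB as deposited and 49.5% to 55.2% after quantile normalization, and the split moved by over 10 points in 5 of 9 comparisons. The median difference over all bins was within 0.1 of 0 except for ULB against GOM in WG (0.108) and against RAD in WL (-0.106), for NC to WG in GOM (0.136), RAD (0.142) and ULB (0.247), and for WG to WL in RAD (0.156). From NC to WG, 0 member bins were called in GOM (2.79% of bins), MAD (4.47%), RAD (4.32%) and ULB (6.15%). From WG to WL, 2 were called in RAD (3.83%) and 0 in GOM (2.53%), MAD (1.01%) and ULB (9.96%). They were TBX15 (0.781 ± 0.18, adjusted p = 0.00211) and SHOX2 (0.879 ± 0.19, 0.00151), both higher in WL RAD by more than the shift of all bins, and neither was called after quantile normalization (0.541 and 0.707). TBX15 expression in RAD did not follow its index: it was not called from WG to WL, with medians of 5.64 and 3.68 TPM.

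Boundaries of topologically associating domains (TADs) within 100 kb of the start were counted in each Hi-C sample and compared by Fisher's exact test over 13053 starts. EN1 was the member called in this test. It had a boundary in 39 of 39 WG ULB samples, against 23 of 46 in GOM (adjusted p = 7.85e-06), 17 of 37 in MAD (9.07e-06) and 29 of 40 in RAD (0.0277), where 6.71%, 3.88% and 2.55% of starts were called. In WG ULB the TAD that held EN1 had a median length of 120 kb, and of 1020 to 1160 kb in the VATs. In NC, 5 of 5 ULB samples had the boundary against 1 of 9 in GOM, 8 of 12 in MAD and 10 of 12 in RAD, and in WL 10 of 10 against 7, 7 and 9 of 10. Fisher's exact test called 0 starts of any gene in NC (0% against each VAT) and in WL (0%), with 3 and 0 of the 24 member tests at an unadjusted p under 0.05, and 336 to 491 and 210 to 275 starts over all genes. The smallest p that this test reached was 0.0004995 (GOM) and 0.00016 (MAD and RAD) in NC, and 1.08e-05 to 0.000119 in WL. In groups this small, a lone start could not pass the adjustment over 13053 starts. The counts of 0 thus cannot show that boundaries were alike.

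FOXC2 had a boundary within 100 kb in 240 of 240 samples, TBX15 in 232, IRX5 in 214, IRX3 in 199, EN1 in 165, TBX1 in 97, ZIC1 in 26 and SHOX2 in 8, while over all PCG starts the mean share per group was 56.9% to 63.7%. ZIC1 and SHOX2 therefore lay deep within TADs, with a median distance to the nearest boundary of 719 and 492 kb. ZIC1 had a boundary in 3 of 5 NC ULB samples and in 0 of 9 of GOM, 0 of 12 of MAD and 4 of 12 of RAD, and in 2 of 39 of WG ULB. TBX1 had one in 10 of 39 WG ULB samples against 26 of 46 in GOM (adjusted p = 0.0616) and 23 of 40 in RAD (0.133). IRX3 and IRX5, whose starts are 529.9 kb apart, lay in the same TAD in 81 of 240 samples (33.8%). The share ran from 1 of 12 in NC MAD to 3 of 5 in NC ULB, with 20 of 37 in WG MAD and 10 of 39 in WG ULB, and was not tested.

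**Figure D4:**
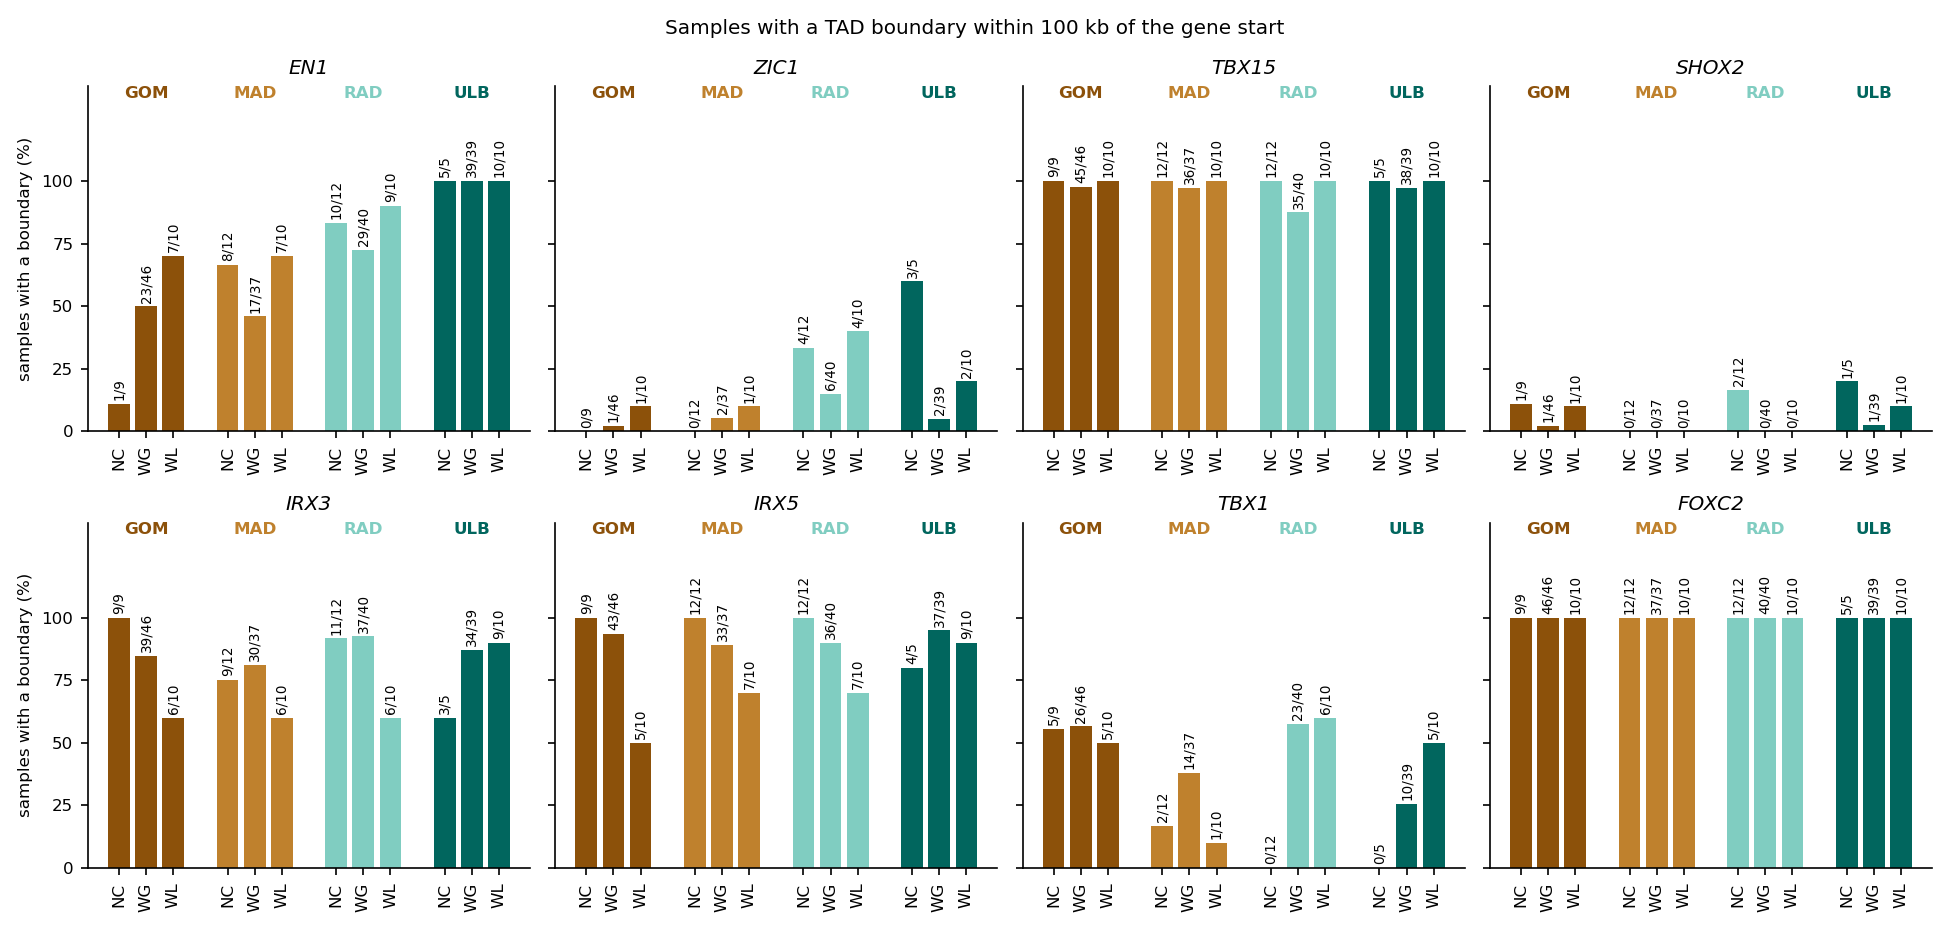
Share of Hi-C samples (percent) with a TAD boundary within 100 kb of the start of each gene, by AT and diet group, with the number of samples above each bar. The EN1 bar is at 100% in ULB of all 3 diet groups, and FOXC2 is at 100% in all 12 groups.

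H3K27ac, a mark of active enhancers and promoters, was read from 18 tables of enhancer regions (5 of GOM, 5 of MAD, 4 of RAD and 4 of ULB), 16 made from pooled libraries and 2 (NC MAD and 1 of WG RAD) from 1 library each, so there is no replicate and no test. A region lay within 10 kb of the gene in 104 of the 144 pairs of a member and a table, and 72.3% to 92.9% of all PCGs had one. EN1 had a region across its start in 4 of 4 ULB tables (the longest 34.6 to 49 kb) and in 4 of 4 RAD tables (21.2 to 41.6 kb). In GOM and MAD it was across the start in 0 of 10 tables, and the regions found nearby were 1.4 to 8.8 kb long. In 2 ULB tables the region of EN1 was a super-enhancer. A region can be joined from separate peaks, so one across a start need not mark the start itself. The EN1 regions held 3 or 4 peaks in the RAD tables and 1 to 5 in the ULB tables.

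ZIC1 had a region in 4 of 4 ULB tables (6.2 to 48.8 kb, 2 of them across the start), in 1 of 4 RAD tables (2.6 kb, the WG RAD table of 1 library) and in 0 of 10 tables of GOM and MAD. TBX15 had one across its start in 4 of 4 ULB tables, 29.6 to 72.0 kb long and a super-enhancer in 3. In 11 of 14 VAT tables a region of 15 to 23.4 kb lay upstream of TBX15, and only that of NC RAD crossed the start. The signal of these VAT regions was 0.962 to 1.47 times that of the input, and up to 3.14 times in ULB. IRX5 had a region in 4 of 4 ULB tables (6.6 to 14.6 kb), 4 of 4 of RAD (2.8 to 6.0 kb), and 2 of 5 of GOM and of MAD. SHOX2 and IRX3 had a region in 3 of 4 ULB tables and 12 and 8 of 14 VAT tables. TBX1 had one in 4 of 4 ULB and 12 of 14 VAT tables, with a super-enhancer of 282 kb in NC RAD, and FOXC2 in 2 of 4 ULB and 12 of 14 VAT tables, with a super-enhancer of 86.6 kb in 1 WG MAD table.

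**Figure D5:**
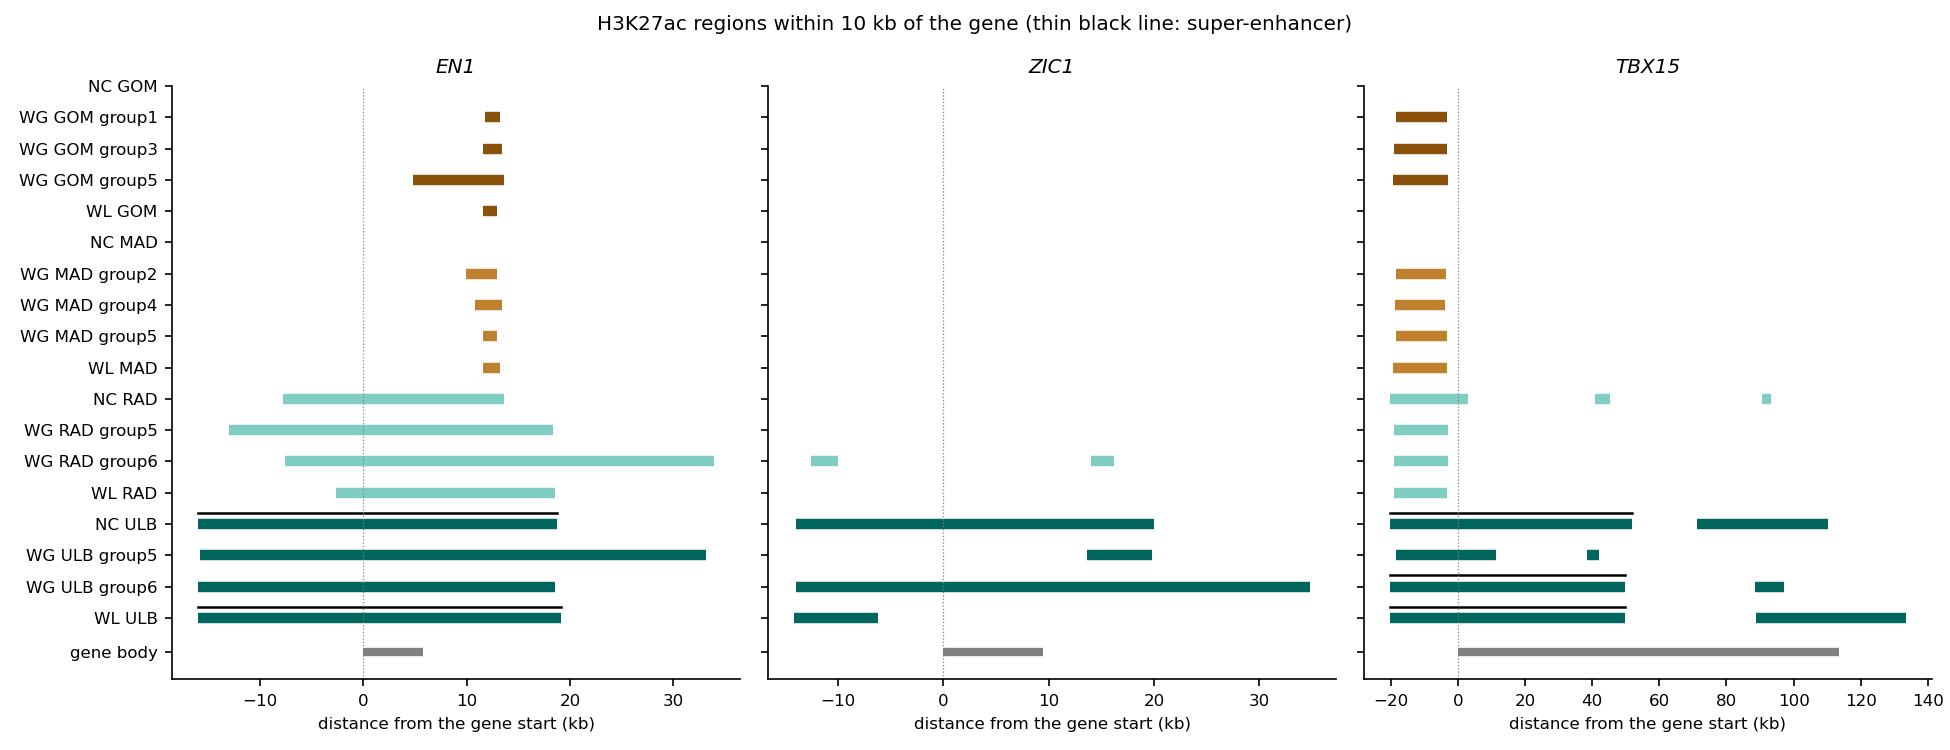
H3K27ac regions within 10 kb of EN1, ZIC1 and TBX15 in the 18 tables (rows), by distance from the gene start in kb, with the gene body in grey at the bottom and a thin black line over super-enhancers. ULB regions cross the start in 4 of 4 tables for EN1 and TBX15, and ZIC1 has regions in all 4 ULB tables and in 1 of 14 VAT tables.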

How the data were processed

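RNA-seq, in situ Hi-C and H3K27ac ChIP-seq tables were used as deposited. The authors estimated transcript abundance with kallisto 0.43.0 and summed it by gene with tximport on Sscrofa11.1 (Ensembl), giving expected counts and TPM. The A-B index (a score) at 20 kb was computed by the authors with Juicer, Knight-Ruiz balancing and BNBC, and TADs were called with deDoc. Reads of H3K27ac were aligned by the authors with BWA 0.7.15 (SAMtools 1.3.1), and the deposited ROSE tables give the H3K27ac and input signal of regions stitched from SICER peaks, with regions within promoters left out, so a missing region is not a missing promoter mark. Groups came from the labels. In each of the count table and the A-B index table, 9 further columns, named for NC ULB and NC GOM, matched no label and were not used.

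Tests of PCGs that passed 0.5 TPM in 80% or more of 1 group ran on rounded counts with edgeR 4.0.16 (TMM, quasi-likelihood, Benjamini-Hochberg) in R 4.3.3. The index was compared with limma 3.58.1 over 113298 bins, and boundaries within 100 kb by two-sided Fisher's exact test. Comparisons were made in Python 3.11.15 with pandas 2.3.3, numpy 2.4.6 and scipy 1.17.1, and figures with matplotlib 3.10.9. Likeness used a pseudocount of 1. edgeR's exact test, DESeq2 1.42.0, no filter, 1 fit over 12 groups, a term for the library set (PCGs below 90% of TPM or not), the replicate block, leaving out each NC ULB sample, and settings of the index, boundaries and regions were alternatives, and leaving out WG GOM replicate 35 was chosen after seeing the data. Scripts were tested on simulated data. Depth gives the precision of counts only, and the index and TADs come without counts per bin.

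The members and lists were chosen with earlier results of these data known. Text names the 8 members, the 3 genes most like each by Pearson's r among PCGs with a symbol (1 of those of EN1 is not reported here), adjacent genes and neighbours within 500 kb, related genes called between ULB and GOM in all 3 diet groups, and visceral factors. MARCO was singled out among the adjacent genes after its values were seen. The replicate number was taken to pair samples where every same-number pair had a correlation of deviations above 0.1: NC GOM and ULB (4 pairs), WG MAD and ULB (30), WG RAD and ULB (33) and WL MAD and RAD (10) for expression, and no comparison for the index. In WG expression, the median correlation was 0.556 to 0.637 for same-number pairs and -0.0955 to -0.0284 for other pairs. WG GOM and ULB had 37 of 38 pairs above 0.1, and WG GOM and MAD 35 of 36. WG GOM and RAD had 37 of 39, and WG MAD and RAD 30 of 31. These comparisons were not taken as paired under the rule, and the main tests did not use the number. The study does not say that the number marks the pig.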

Additional observations from a re-analysis of the deposited data

Results flagged for a closer look

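In groups of 4 to 10 samples, 1 sample lay far from the others by Dixon's test in 9 of 46 groups of TPM values and 3 of 48 groups of index values, where chance marks about 1 in 20 groups. ZIC1 was at 0.3997 TPM in NC GOM replicate 1 (the next sample 0.0757), at 0.213 in WL GOM replicate 2 (0.0923) and at 37.5 in WL ULB replicate 6 (21.6). TBX15 was at 0.259 TPM in WL GOM replicate 3 (0.0936) and at 9.93 in WL RAD replicate 8 (5.25). TBX1 was at 9.56 TPM in WL MAD replicate 2 (6.29), at 1.19 in WL RAD replicate 2 (0.678) and at 3.24 in WL ULB replicate 6 (1.62). FOXC2 was at 1.09 TPM in WL ULB replicate 9 (0.552). In WL ULB, the A-B index of ZIC1 was 1.05 in replicate 10 (the next sample -0.461) and that of IRX5 0.874 in replicate 7 (0.316), and in WL GOM that of FOXC2 was 1.49 in replicate 9 (3.38).

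The difference of ULB from MAD in TBX15 expression changed from WG to WL by -1.35 on the log2 scale (adjusted p = 0.0196 by the interaction contrast in edgeR).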

How the results depend on the processing

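No called member test changed sign under any alternative that was run for it. Signs were not compared for tests that were not called. The members' calls numbered 98 for expression and 43 for the index, and 856 of their alternative values kept the side of the threshold while 43 lost it. Calls of members from NC to WG (0) became 1 with a term for the library set, 4 with no filter, 5 in 1 fit over the 12 groups and 1 with no limit on the fold, and stayed 0 without any 1 NC ULB sample. From WG to WL (1) they became 2 with edgeR's exact test, 0 with the library set term, 3 in 1 fit, and 2 without WG GOM replicate 35, and between NC and WL (6) 11 with no filter. The change of the ULB difference from NC to WG (0) became 1 with the library set term, and ranged from 0 to 1 as each NC ULB sample in turn was dropped. For the index, calls higher in ULB in NC (16) became 8 with the replicate block and ranged from 15 to 17 with 1 NC ULB sample left out. Calls over all 113298 bins also fell with the block in NC. Bins higher in ULB went from 12493 to 8460 against GOM, 5173 to 0 against MAD and 9150 to 2670 against RAD. From NC to WG (0) the index gave 1 call after quantile normalization and 3 above a difference of 0.5, and from WG to WL (2) 0, 6 above 0.5, and 0 as a mean of 3 bins. Under frequency classes (70% or more against under 30%) boundaries gave 1 call in NC (0) and 0 in WG (3). H3K27ac regions (104 pairs) became 55 with no flank and 36 at 2 or more times the input. The causes were not tested, apart from fewer regions under a stricter rule.

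With the replicate block, calls higher in ULB numbered 15, 18 and 18 in NC, WG and WL for expression (17, 18 and 17 without), and 8, 13 and 10 for the index (16, 14 and 10), and calls between VATs in either direction 10, 11 and 14 (11, 11 and 12). The fall for the index in NC went with a fall over all bins, as given above. Where the numbers pair the samples, the block added 2 calls between WL MAD and RAD (IRX3 and IRX5) and changed no other. Diet comparisons could not be paired, because samples of different diet groups are different pigs. Boundaries were compared between ATs by Fisher's exact test, which takes samples with the same number as independent, and no paired test of them was run. H3K27ac tables were not tested. Leaving out WG GOM replicate 35 or an NC ULB sample applies only to the fits that hold it. Depth limits ZIC1, FOXC2 and IRX5 in the VATs, and EN1 and TBX15 in GOM and MAD, where values near 0 rest on few counts.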
